A study of Mus musculus with 6 samples.

Results

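The transcripts described here are those of the proteasome subunit genes, that is, every non-control probe on the array whose gene name is Psma, Psmb, Psmc or Psmd followed by a number. The rule found 48 probes for 39 genes among 55681 probes. A probe was kept if at least 3 arrays of 6 flagged its signal as well above background. This left 45 probes and 37 genes, of 20975 genes kept in all, each represented by its brightest probe. The rule used names and brightness and no comparison between groups. Total RNA came from mouse brain synaptosomes (resealed synaptic endings isolated from homogenised tissue) and was measured with one-colour arrays (Cy3), 1 per sample. The groups were knock-in and wild type, with 3 samples each. The labels disagree on the former: its genotype entry says knock-out, whereas the description and the design text say knock-in, the name used here. The series title names FMR1, but which gene carries the knock-in allele, how it was made, the strain and age of the mice and whether each sample came from a separate animal are not given in the sources used here, so p-values measure only how far these samples vary, and that variation may be technical. In such bulk material, fewer terminals or cells of a type and less RNA in each cannot be told apart.

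The proteasome is the barrel-shaped protease that degrades ubiquitin-tagged proteins. Its core particle is a stack of rings of alpha subunits (Psma genes) and beta subunits (Psmb genes), the latter carrying the proteolytic sites, and a regulatory particle of ATPases (Psmc genes) and non-ATPases (most Psmd genes) binds, unfolds and feeds in the substrate. In cells exposed to interferon, the catalytic beta subunits Psmb5, Psmb6 and Psmb7 are replaced in new particles by the immune subunits Psmb8, Psmb9 and Psmb10. In neurons, the proteasome is present at synapses, where it shapes the protein content of the terminal, and ubiquitin and proteasome components are known constituents of the inclusions found in repeat-expansion brain disease.

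All values are log2 signals relative to the 75th percentile of the array, so a difference of a given size means the same fold for every gene, but a level cannot be compared between genes. The labels gave an RNA integrity number of 10 for every sample, and an input of 0.2 micrograms of RNA for 5 samples and of 0.0 for knock-in replicate 1. Slide 1 held the 3 knock-in arrays and wild-type replicate 3, and slide 2 held wild-type replicates 1 and 2. The percentile itself lay between 883 and 910 signal units in knock-in, at 823 in wild-type replicate 3 and at 578 and 580 on slide 2. Of the neuron and synapse markers, among them Snap25 and Syn1, 10 of 10 were kept, and of the microglial markers 12 of 12. Markers of oligodendrocytes were higher in knock-in in 8 of 8 genes (median 0.26), with a summed linear signal from 198 to 270 in knock-in and from 167 to 240 in wild type. Markers of striatal medium spiny neurons were higher in 9 of 9 (median 0.89), with sums from 50.3 to 275 and from 45.6 to 195. The part of such tissue differences in the proteasome values was not tested. Fmr1, the gene in the series title, read 2.08, 2.24 and 2.27 in the knock-in arrays, all above the wild-type values of 1.42, 1.33 and 1.37, with limma's adjusted p = 0.198 over all genes.

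Proteasome transcripts differed little between knock-in and wild type. Of 37 genes, 17 were higher and 20 lower in knock-in, where 40.9% of all genes were higher and 59.1% lower, with a median log2 difference of -0.02, beside a median of -0.05 over all genes. That small median was above 0 under normexp background correction (0.01), in the authors' value table (0.04) and after quantile normalization (0.04). The differences ran from -0.36 for Psmb10 to 0.52 for Psmb2, that is, from 0.778 to 1.43 times the wild-type level. None of the 37 genes passed limma's adjusted p of 0.05, a threshold that 0.00954% of all genes passed, and the lowest adjusted p among them was 0.433. At an unadjusted p under 0.05 there was 1 gene higher (Psmd5) and 0 lower, where 4.45% of all genes were higher and 6.4% lower. In 3 genes the knock-in arrays lay wholly above the wild-type arrays and in 6 wholly below, together 24.3% of the members, while the background over all genes was 20.3% (7.87% above and 12.5% below). The share of proteasome genes that separated the groups was thus near that of any gene.

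**Figure D1:**
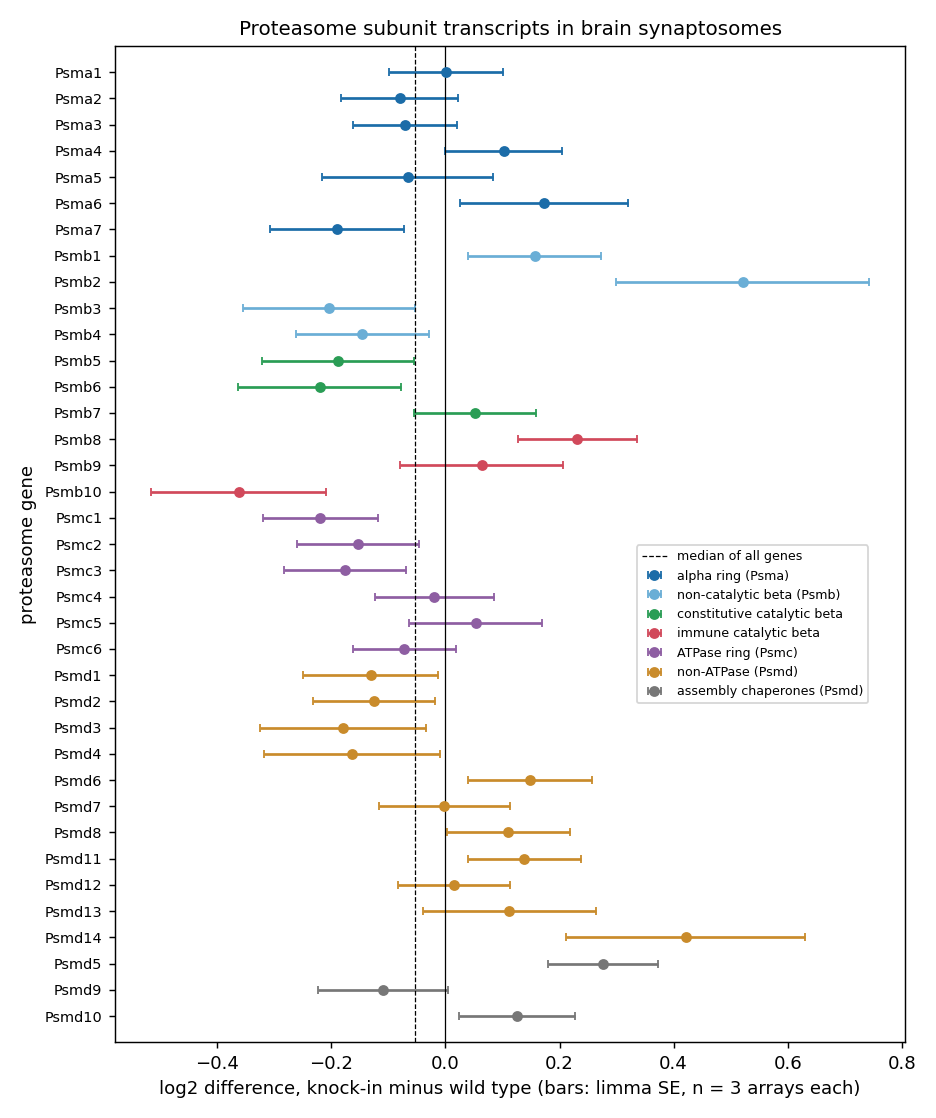
Log2 difference, knock-in minus wild type, for the 37 kept proteasome genes (points, coloured by role in the particle), with limma's SE from 3 arrays a group; the solid line marks 0 and the dashed line the median of all genes. The genes scatter to both sides, from -0.36 for Psmb10 to 0.52 for Psmb2, and each role has genes on both sides, with 5 of 6 below 0 in the ATPase ring.

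The 2 genes that did not pass the filter are core subunits of restricted tissues, Psma8 of the testis and Psmb11 of the thymic cortex. Both were well above background on 0 of 6 arrays. Psma8 read between -7.50 and -6.98 and Psmb11 between -7.67 and -7.03. The dimmest gene that was kept was Psmb9, with a mean of -1.03, and every kept gene was well above background on 6 of 6 arrays. No member therefore lay close to the filter, and none was kept through 1 group alone.

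The alpha ring forms the gate of the core. Of its 7 kept genes 3 were higher and 4 lower, and all 7 overlapped between groups. Psma7 had the smallest p of the ring. Its knock-in values were 5.08, 5.01 and 4.97 (values are given in replicate order throughout) and its wild-type values 5.20, 5.38 and 5.05, a difference of -0.19 (SE 0.12, limma's adjusted p = 0.538). Knock-in replicate 1 lay above wild-type replicate 3, so the groups overlapped. The difference was -0.10 without wild-type replicate 2 and -0.030 on slide 1 alone. Psma1 and Psma3 were the steadiest, each spanning 0.17 over the 6 arrays, and Psma1 differed by 0.0017. Psma6 read 3.66, 3.68 and 3.53 (knock-in) and 3.69, 3.19 and 3.48 (wild type). Its difference of 0.17 (SE 0.15) came with a low value in wild-type replicate 2, without which it was 0.042, while wild-type replicate 1 was the highest of the 6.

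Among the beta subunits without proteolytic activity, Psmb2 had the largest difference of any member. It read 0.89, 0.82 and 0.67 in knock-in against 0.69, -0.18 and 0.31 in wild type, a difference of 0.52 (SE 0.22, limma's adjusted p = 0.466, exact permutation p = 0.2). Wild-type replicate 1 lay above knock-in replicate 3, and wild-type replicate 2 was the lowest array by far. Without wild-type replicate 2 the difference was 0.29. Psmb1 differed by 0.16 and Psmb3 by -0.20, and by 0.061 and -0.054 without that array. Psmb4 read 5.94, 5.93 and 5.89 (knock-in) and 5.98, 6.26 and 5.95 (wild type). Its knock-in arrays lay wholly below the wild-type arrays, by a narrow margin between knock-in replicate 1 and wild-type replicate 3, and the difference was -0.15 (SE 0.12), or -0.048 without wild-type replicate 2.

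The constitutive catalytic subunits overlapped between groups. Psmb5, which carries the chymotrypsin-like site, read 6.58, 6.55 and 6.54 in knock-in against 6.54, 6.98 and 6.71 in wild type, a difference of -0.19 (SE 0.13, limma's adjusted p = 0.578). Psmb6, with the caspase-like site, read 5.62, 5.56 and 5.47 against 5.66, 6.04 and 5.60, a difference of -0.22 (SE 0.14, adjusted p = 0.552). Psmb7, with the trypsin-like site, read 3.91, 3.98 and 3.98 against 3.89, 3.78 and 4.05, a difference of 0.052 (SE 0.11) whose sign turned to -0.091 on slide 1 alone. Without wild-type replicate 2, which was the highest array for Psmb5 and Psmb6 and the lowest for Psmb7, the differences were -0.069, -0.083 and -0.0094.

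The immune subunits did not move as a set. Psmb8, the interferon-inducible counterpart of Psmb5, read -0.30, -0.38 and -0.46 (knock-in) and -0.62, -0.71 and -0.51 (wild type). The knock-in arrays lay wholly above, with knock-in replicate 3 close to wild-type replicate 3, and the difference was 0.23 (1.17-fold, SE 0.10, limma's adjusted p = 0.474, exact permutation p = 0.1, the smallest that 3 against 3 arrays allow). It was 0.18 without wild-type replicate 2 and 0.13 on slide 1 alone. Psmb10, the counterpart of Psmb7, went the other way. It read 4.55, 4.73 and 4.81 in knock-in against 4.87, 5.34 and 4.98 in wild type, wholly below, with a difference of -0.36 (0.778-fold, SE 0.15, adjusted p = 0.464, exact permutation p = 0.1), which was -0.22 without wild-type replicate 2. Psmb9, the counterpart of Psmb6, read -0.89, -0.98 and -1.14 (knock-in) and -1.29, -0.86 and -1.04 (wild type). Its groups overlapped, and the difference of 0.064 (SE 0.14) turned to -0.050 without wild-type replicate 1. Without wild-type replicate 2 it was 0.17, close to that of Psmb8. Psmb8 and Psmb9 are near neighbours in the major histocompatibility complex, where their probes lie on chromosome 17 of build mm9 at 34337771 to 34337830 and at 34319174 to 34319233, while the Psmb10 probe lies on chromosome 8 at 108459677 to 108459736. The neighbours thus did not share the separation between groups that Psmb8 showed. A second Psmb9 probe, which starts at base 1477 of an Ensembl transcript, was well above background on 0 arrays.

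The subunits that replace each other were then set against each other within an array, which cancels anything that scales a whole array. Such a difference shows unequal change of 2 probes and not which of them changed. Psmb8 minus Psmb5 was -6.88, -6.92 and -7.01 in knock-in against -7.16, -7.69 and -7.22 in wild type, higher in knock-in by 0.42. Psmb9 minus Psmb6 was -6.51, -6.53 and -6.61 against -6.95, -6.91 and -6.64, higher by 0.28. Psmb10 minus Psmb7 was 0.64, 0.75 and 0.83 against 0.98, 1.56 and 0.93, lower in knock-in, with a difference of -0.41. All 3 pairs separated the groups without overlap, each with an exact two-sided permutation p of 0.1, which stays 0.1 after Benjamini-Hochberg adjustment over the 3 pairs and is the smallest that 3 against 3 arrays allow. Single genes separated the groups in 20.3% of cases over the array, and the share among other pairs of probes was not computed. In each pair the brighter probe gave the lower difference, as among the members at large (the plot of difference against brightness), and the probes of Psmb5 and Psmb6 hold the polyadenylation signal described there. The size rested in part on single arrays: without wild-type replicate 2 the differences were 0.25, 0.25 and -0.21, and against wild-type replicate 3 alone, the only wild-type array on the slide of the knock-in arrays, they were 0.28, 0.094 and -0.19.

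**Figure D2:**
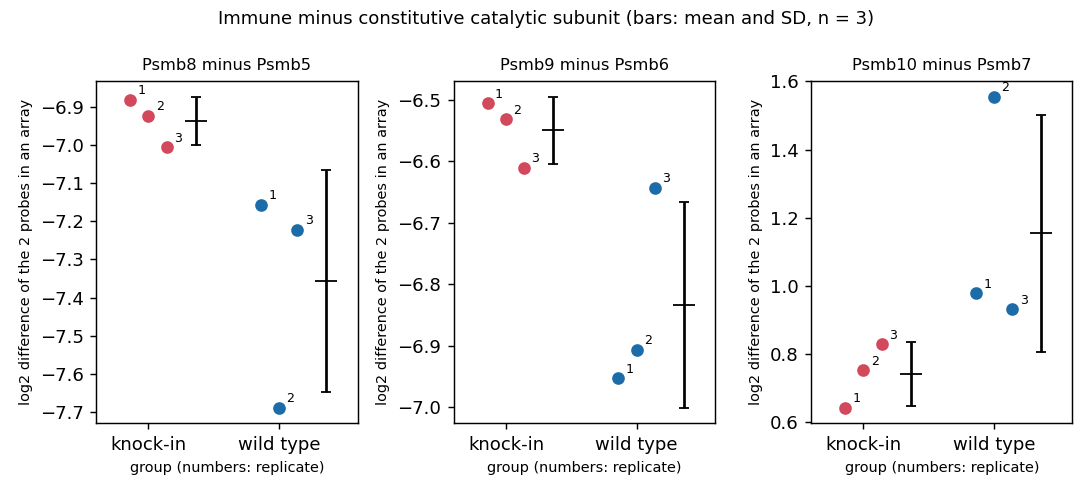
Log2 value of the immune subunit minus that of the constitutive subunit it replaces, within each array, for 3 pairs (numbers: replicate; bars: mean and SD, n = 3); the vertical axes differ and do not start at 0. The knock-in arrays lie above the wild-type arrays for Psmb8 minus Psmb5 and for Psmb9 minus Psmb6 and below them for Psmb10 minus Psmb7, where wild-type replicate 2 stands apart at 1.56.

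Psmb5 and Psmb8 are related in sequence, and the dimmer of the Psmb5 probes, at base 607 of its transcript (chromosome 14, 55233161 to 55233220, mm9), happens to lie over the same part of the protein-coding sequence as the Psmb8 probe at base 856. The 60-base probes overlap over 50 bases, of which 31 are identical (62.0%). The brighter Psmb5 probe, which gave the difference of 0.42, matched the Psmb8 probe at 21 of 57 overlapping bases (36.8%). Below is the best-matching stretch of 30 bases of the dimmer Psmb5 probe and the Psmb8 probe. It was picked for its match, and capitals mark the 7 bases that differ:
Psmb5: GgaGgaggcctaTgaTctGgCccgcCgagc
Psmb8: TgaAgaggcctaCgaCctTgGccgcAgagc
The Psmb5 probe of this stretch read 4.60, 4.65 and 4.67 (knock-in) and 4.43, 4.95 and 4.73 (wild type), a difference of -0.069, and with it Psmb8 minus Psmb5 was higher in knock-in by 0.30. Whether either probe also binds the other transcript was not tested.

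Interferon signalling and antigen presentation genes, which accompany the immune subunits in responding cells, gave no common direction. Of 11 genes listed, 9 were kept, with 4 higher and 5 lower and a median difference of -0.089. Irf9, a transcription factor of interferon signalling, was wholly above at 0.22 (SE 0.10, limma's adjusted p = 0.476). Microglia, immune cells of the brain that can express these subunits, were represented by 12 markers, of which 8 were higher and 4 lower, 1 in each direction at an unadjusted p under 0.05 (C1qa at 0.32 and Cx3cr1 at -0.26), where 4.45% of all genes were higher and 6.4% lower at that p. Their summed linear signal, relative to the 75th percentile, ran from 218 to 228 in knock-in and from 215 to 245 in wild type. The part of microglia in the Psmb8 and Psmb10 values was not tested.

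The ATPases form the ring of the regulatory particle that unfolds substrates and opens the gate of the core. Of the 6 Psmc genes 5 were lower in knock-in and 1 higher, with a median of -0.11. In 4 of them (Psmc1, Psmc2, Psmc3 and Psmc6) the knock-in arrays lay wholly below, where the background for that direction was 12.5% of all genes, and 0 had an unadjusted p under 0.05. Psmc1 read 6.47, 6.44 and 6.42 (knock-in) and 6.63, 6.78 and 6.56 (wild type), a difference of -0.22 (SE 0.10, limma's adjusted p = 0.480). Its second probe, at base 1210, also lay wholly below, at -0.14. Psmc3 read 6.64, 6.69 and 6.64 against 6.76, 6.99 and 6.74, a difference of -0.18 (SE 0.11, adjusted p = 0.535), while its second probe overlapped, at -0.066. Psmc2 differed by -0.15 and by -0.19 on its 2 probes, which overlap each other. Without wild-type replicate 2 the brightest probes of Psmc1, Psmc2 and Psmc3 gave -0.16, -0.078 and -0.096. Psmc6 differed by -0.072, Psmc4 by -0.020 and Psmc5 by 0.053. The median of the 6 was -0.081 without wild-type replicate 2, -0.066 with quantile normalization and -0.028 with the authors' value table, each time lower, with 2 genes higher in each of these settings.

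Among the 11 non-ATPases that make up the base and the lid of the regulatory particle, 6 were higher and 5 lower, with a median of 0.015. Psmd14, the deubiquitinase that cuts ubiquitin chains off the substrate, read 2.04, 2.01 and 1.83 in knock-in against 1.84, 1.08 and 1.70 in wild type. Its difference of 0.42 (SE 0.21, limma's adjusted p = 0.499) is the second largest of all members, but the groups overlapped, and it was 0.19 without wild-type replicate 2. Psmd11, a lid subunit that contacts the core, read 2.47, 2.40 and 2.38 against 2.17, 2.36 and 2.30. It lay wholly above by a narrow margin, with a difference of 0.14 (SE 0.099, adjusted p = 0.580). The large scaffold subunits Psmd1 and Psmd2, which carry binding sites for ubiquitin shuttles and other partners, differed by -0.13 and -0.13, and the ubiquitin receptor Psmd4 by -0.16. Without wild-type replicate 2 these were -0.033, -0.050 and -0.0012. Psmd13 had the widest spread within knock-in, at 3.36, 3.74 and 3.64, and overlapped with wild type at 3.25, 3.57 and 3.59. The lid genes Psmd6 and Psmd8 differed by 0.15 and 0.11 and Psmd3 by -0.18, or by 0.074, 0.059 and -0.041 without that array, and Psmd7 and Psmd12 by -0.0017 and 0.015.

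The Psmd series also names 3 chaperones that hold parts of the ATPase ring during assembly and are absent from the finished particle, Psmd5, Psmd9 and Psmd10. Psmd5 had the smallest p of all members. It read 1.84, 1.93 and 1.85 (knock-in) and 1.66, 1.5 and 1.63 (wild type), wholly above, with a difference of 0.28 (1.21-fold, SE 0.096, limma's adjusted p = 0.433, exact permutation p = 0.1). Leaving out one array moved it between 0.23 and 0.31, and on slide 1 alone it was 0.24. Psmd10, also known as the oncoprotein gankyrin, differed by 0.13 on its brightest probe, where the groups overlapped, and by -0.23 on its second one, where the knock-in arrays lay wholly below. That second probe read -0.70, -0.90 and -0.86 in knock-in against -0.55, -0.55 and -0.67 in wild type. Psmd9 likewise gave -0.11 on one probe and 0.13 on the other. These data thus give no direction for Psmd9 and Psmd10.

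The core and the regulatory particle as wholes were close to each other. The 17 core genes had a median difference of -0.066, with 8 higher and 9 lower, and the 20 regulatory genes had a median of -0.011, with 9 higher and 11 lower. The core minus the regulatory median was -0.055, beside an SD between arrays of 0.063 for that quantity. Without the chaperones the regulatory median was -0.020. Both medians changed sign with the processing: quantile normalization gave 0.0095 for the core and 0.049 for the regulatory particle, and the authors' value table gave 0.010 and 0.055. On slide 1 alone they were -0.033 and -0.022. The core minus the regulatory median stayed below 0 in every setting run, between -0.070 and -0.0070, and in the reported setting it was smaller than its SD between arrays.

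The spread among wild-type arrays was wider than that among knock-in arrays. The SD between replicates was larger in wild type for 35 of 37 members, or 94.6%, and for 71.1% of all genes. The median SD of a member was 0.048 in knock-in and 0.15 in wild type, and 0.082 over wild-type replicates 1 and 3. The knock-in arrays shared a slide and the wild-type arrays did not. One array stood apart: wild-type replicate 2 was the highest of the 6 for 20 members and the lowest for 12, so that it was the extreme array for 86.5% of members, as it was for 58.9% of all genes. Leaving it out moved the difference by over 1.5 times, or turned its sign, in 29 of 37 members, and brought 26 nearer to 0. On slide 1 alone these counts were 27 and 30. Differences close to 0 meet this criterion easily. The share over all genes and the counts for other single arrays were not computed, so the counts do not show an effect particular to the members or to this array. Wild-type replicate 1 was an extreme array for 13 members and knock-in replicate 1 for 10. The median deviation of the members from their own mean was 0.12 in wild-type replicate 2 and between -0.043 and -0.0025 in the other 5 arrays.

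**Figure D3:**
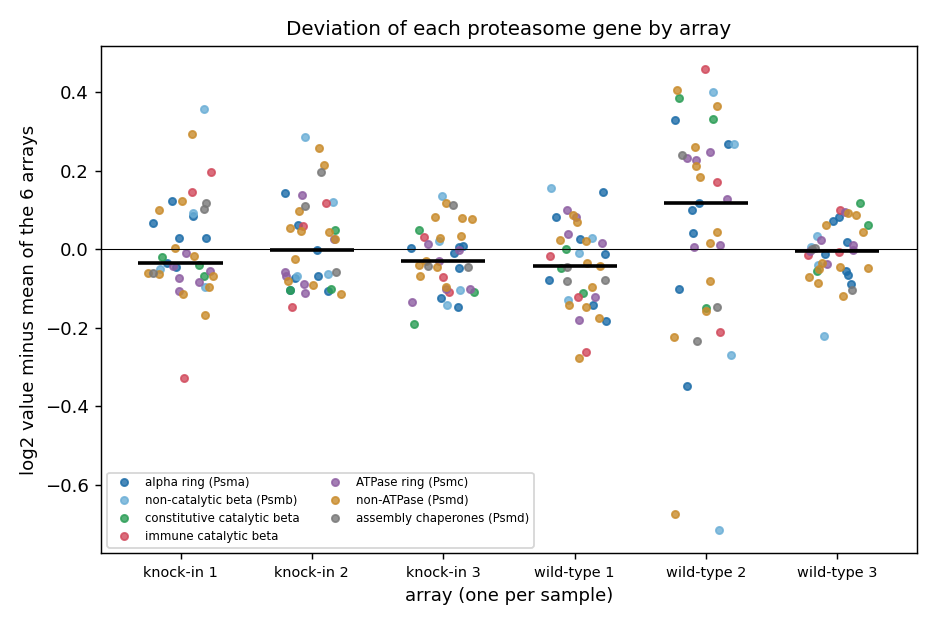
Log2 value of each of the 37 proteasome genes minus its own mean over the 6 arrays, by array (points, coloured by role in the particle; horizontal bars: median over genes). Wild-type replicate 2 has the widest scatter and the highest median, 0.12, with Psmb2 and Psmd14 lowest and Psmb10 highest.

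Brighter probes gave lower differences among the members. Signal brightness here is that of the spot and no measure of RNA amount. Across the 37 members, the difference between groups and the brightness of the probe had a Spearman correlation of -0.80, whereas it was -0.014 over all 20975 genes and -0.16 over the 13011 genes at least as bright as the dimmest member. Without wild-type replicate 2 the correlation among members was -0.76. The members share arrays and scaling, so this is a description of these 6 arrays. The brighter 18 members had 2 genes higher and 16 lower and a median of -0.16, and the other 19 had 15 higher and 4 lower and a median of 0.11, a split chosen after the values were seen. Without wild-type replicate 2 these medians were -0.049 and 0.083, and on slide 1 alone -0.062 and 0.060.

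A second property of the probe, also picked after the values were seen, is whether it holds the letters AATAAA, the polyadenylation signal found shortly before the end of many transcripts. Of 37 members 7 had such a probe (18.9%, against 14.2% of all genes): Psmb3, Psmb5, Psmb6, Psmc1, Psmc2, Psmc3 and Psmd4. All 7 were lower in knock-in, with a median of -0.19 and a range from -0.22 to -0.15. The other 30 had 17 higher and 13 lower and a median of 0.033. All 7 are among the brighter 18 members, with a mean brightness from 4.99 to 6.74. The other 30 include all of the dimmer 19 members, so this contrast is mixed with that of brightness. Over all genes, those with the letters in the probe had a median of -0.12 and those without a median of -0.037. Of the former, 75.1% were lower in knock-in, and of the latter 56.5%, so most such probes on the array were lower. All 7 also stayed lower under quantile normalization (median -0.10), normexp (-0.15) and the authors' value table (-0.075), and 6 of 7 on slide 1 alone. Wild-type replicate 2 exceeded the mean of the other 2 wild-type arrays by a median of 0.36 in the 7 members and of 0.11 in the other 30, and by 0.18 and 0.067 in the corresponding genes of the whole array. Without that array, the medians were -0.078 and 0.050. Of the 4 ATPase genes whose groups did not overlap, Psmc1, Psmc2 and Psmc3 belong to the 7. Knock-in arrays lay wholly below in these 3 of the 7 (42.9%), and in 19.4% of all genes with the letters in the probe. The part of RNA integrity or labelling in these values was not tested.

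**Figure D4:**
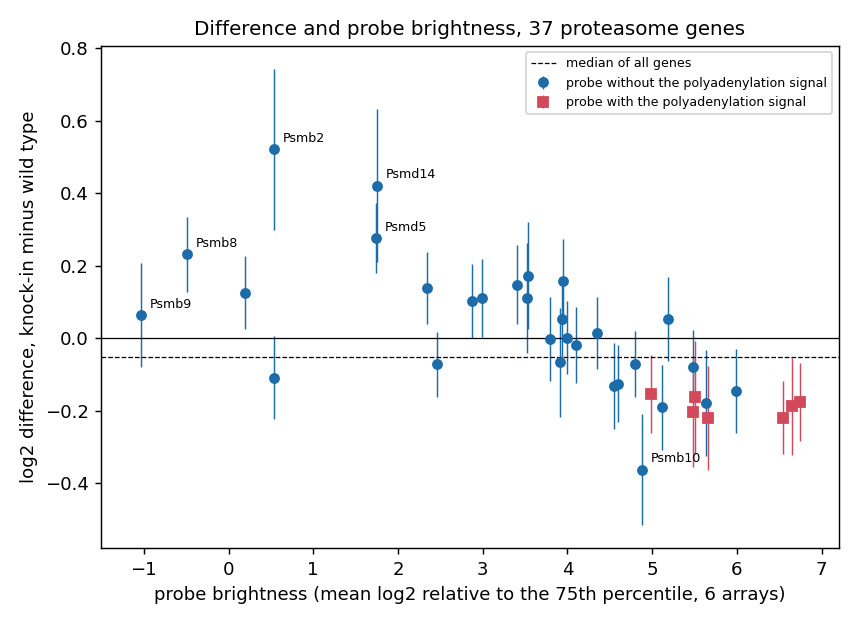
Log2 difference between knock-in and wild type (vertical, bars: limma SE) against the brightness of the probe (horizontal, mean log2 relative to the 75th percentile of the array) for 37 proteasome genes; the dashed line is the median of all genes. Squares mark the 7 genes whose probe holds the polyadenylation signal, which all lie below 0; points fall from the dim genes Psmb2 and Psmd14 at the upper left to the bright ones at the lower right (Spearman correlation -0.80).

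Genes with more than 1 kept probe allow a look at the position of the probe within a gene, although whether both probes read the same isoforms was not tested. There were 8 such genes, and in 6 the probes had the same sign. In 6, the overlapping Psmc2 probes included, the probe further along the transcript gave the lower difference, among them Psma4 (0.19 at base 409 and 0.10 at base 643), Psmb5 (-0.069 at base 607 and -0.19 at base 811) and Psmd10 (0.13 at base 520 and -0.23 at base 1392). Psmd9 went the other way (-0.11 at base 607 and 0.13 at base 980), and Psmd12 gave 0.014 and 0.015. By brightness, the probe with the lower difference was the dimmer one in Psmc2, Psmd10 and Psmd12 and the brighter one in the other genes. The second Psmd10 probe also holds the polyadenylation signal. The probe used thus moved the value by up to 0.35 within 1 gene.

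The other genes of the pathway were taken from lists. Of 5 genes for activators of the core and its inhibitor, 1 was higher and 4 lower, where 40.9% of all genes were higher and 59.1% lower. Of these 5, 0 had an unadjusted p under 0.05 in limma, beside 4.45% of all genes higher and 6.4% lower at that p. Psme4, the activator that binds without ubiquitin, differed by -0.26 (SE 0.14, limma's adjusted p = 0.509), wholly below, and by -0.13 on slide 1 alone, and the interferon-inducible activator gene Psme2 by -0.15. Of 9 assembly chaperone genes 8 were kept, the 3 Psmd chaperones included, with 3 higher and 5 lower. In knock-in 2 lay wholly above and 2 wholly below, where 7.87% and 12.5% of all genes did. Psmg4, which helps to build the alpha ring, read 1.14, 0.94 and 0.65 (knock-in) and 0.54, 0.63 and 0.56 (wild type), wholly above, at 0.33 (SE 0.14, adjusted p = 0.465). Pomp, which matures the beta ring, was wholly below at -0.24 (SE 0.11), and its probe holds the polyadenylation signal. Psmg1 was also wholly below, at -0.20 (SE 0.11), and at -0.043 on slide 1 alone.

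Among 9 genes for further regulatory and proteasome-bound proteins, 1 was higher and 8 lower, where 40.9% of all genes were higher and 59.1% lower. At an unadjusted p under 0.05 there were 1 higher and 2 lower, beside 4.45% and 6.4% of all genes. The ubiquitin ligase gene Ube3a, whose loss in neurons causes Angelman syndrome, read 0.40, 0.20 and 0.04 in knock-in against -0.03, -0.24 and -0.25 in wild type, wholly above, at 0.39 (SE 0.13, limma's adjusted p = 0.433). Ecpas, a proteasome adaptor, was lower by -0.53 (SE 0.21, adjusted p = 0.451), with overlap between groups and -0.11 on slide 1 alone. Usp14, a deubiquitinase of the proteasome that is important at synapses, was wholly below at -0.29 (SE 0.12, adjusted p = 0.459) and at -0.14 on slide 1 alone, and its probe also holds the polyadenylation signal. Of 13 genes for ubiquitin, its activation and its shuttles, 5 were higher and 8 lower and 0 had an unadjusted p under 0.05; Uba6, a second ubiquitin-activating enzyme, differed by 0.38 with overlap between groups.

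Transcription of proteasome genes is raised when the protease is inhibited, through the factor Nfe2l1, and in oxidative stress through its relative Nfe2l2, both of which bind the antioxidant response element. Of 10 genes of this control 5 were higher and 5 lower, 1 of them higher at an unadjusted p under 0.05, as were 4.45% of all genes. Nfe2l2 read 1.25, 1.05 and 0.87 (knock-in) and 0.81, 0.38 and 0.28 (wild type), wholly above, at 0.56 (SE 0.18, limma's adjusted p = 0.416). Nfya, a subunit of the factor that binds CCAAT boxes, was wholly above at 0.37 (SE 0.16, adjusted p = 0.468), with 0.24 without wild-type replicate 2 and 0.18 on slide 1 alone. Nfe2l1 differed by -0.21 with overlap, and by -0.0032 on slide 1 alone.

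Promoters of the members were read from RefSeq (build GRCm38.p6), which held windows of 300 bases for 32 of the 39 genes. The antioxidant response element, searched as TGACNNNGC on both strands, was found in 5 of the 32 (15.6%), and in 14% of 27025 genes. The CCAAT box, as CCAAT, was found in 13 (40.6%) and in 41.1%. The interferon gamma activated site, as TTCNNNGAA, was found in 2 members, Psmb8 and Psmd2 (6.25%), and in 9.55% of genes. The interferon-stimulated response element, as GAAA, any 2 bases and GAAA, was found in Psmb3, Psmd4 and Psmd9 (9.38%) and in 3.99% of genes, and the NF-kappaB consensus in 0 members. The sites of the catalytic pair that the arrays compared, and that of the chaperone Psmd9, are shown with 10 bases on either side, on the strand of the gene, with the motif in capitals:
Psmb5: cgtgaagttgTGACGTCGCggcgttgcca
Psmb8: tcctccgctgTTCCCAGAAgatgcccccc
Psmd9: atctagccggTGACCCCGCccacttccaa
The Psmb5 stretch lies at chr14:54618024-54618052, the Psmb8 stretch at chr17:34198088-34198116 and the Psmd9 stretch at chr5:123228149-123228177. Members with an antioxidant response element were Psmb5 (-0.19), Psmb6 (-0.22), Psmc6 (-0.072), Psmd9 (-0.11 on its brightest probe) and Psmd12 (0.015). A match of letters is no measured binding site.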

How the data were processed

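Per the file headers, the scanner software was Agilent Feature Extraction 10.7.3.1 and the array annotation used mm9, and the authors deposited for each spot a background-subtracted, detrended intensity, the raw intensities and their background. The authors also deposited a table of log2 values whose columns rank as the raw median intensity of their array (Spearman correlation 1 each); its normalization is not stated in the labels or headers. From the processed intensity, log2 values were scaled by the 75th percentile of each array over 59305 non-control spots, spots of a probe averaged without outlier-flagged spots, and probes kept when well above background on at least 3 arrays. Updated names from RefSeq were used for genes outside the rule. limma 3.58.1 in R 4.3.3 compared 3 knock-in with 3 wild-type arrays over 20975 genes (Benjamini-Hochberg, threshold 0.05, two-sided), after a check on simulated data; single values were also tested by exact permutation. The number of arrays limits the precision. The genes named are the catalytic pairs, the 5 members of smallest p in each direction, the members nearest the filter on dim probes on either side, members whose probes differ in sign and the 2 genes of smallest p of each list; others are given by role, and some list genes that the rule names are not reported here. The members and lists were chosen with earlier results of these data known. Replicate numbers are shared between groups, and the reported fit did not pair samples by them. Deviations of same-numbered arrays correlated at 0.40, -0.024 and 0.25, and those of differently numbered arrays at values from -0.40 to 0.15. Whether samples of the same number were prepared together was not tested, and a replicate block was run as an alternative.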

Additional observations from a re-analysis of the deposited data

How the results depend on the processing

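No proteasome gene passed the threshold under any of the 20 alternatives, and of 300 values of 15 named members 293 kept their sign. The exceptions were Psmd10 (-0.051 as the mean of its probes, -0.23 on its second probe), Psmd9 (0.013 and 0.13), Psmb7 (0.052; -0.091 with slide as a fixed block, and -0.0094 to 0.12 on leaving out one array, lowest without wild-type replicate 2) and Psmb9 (-0.050 to 0.17 on leaving out one array, lowest without wild-type replicate 1). The cause was not tested. Slide as a fixed block leaves wild-type replicate 3 as the only control. Members with an unadjusted p under 0.05 numbered 1, against 3 with normexp, 2 without a filter, 3 with all 6 arrays above background, 0 with slide as a fixed block, 2 with the replicate block, 4 with trend and robust moderation, 2 with array weights, 0 among probes with AATAAA, 0 without the chaperones, and 0 to 4 on leaving out one array (0 without any one knock-in array, 4 without wild-type replicate 1). Genes past the threshold over the whole array numbered 2, against 1 with normexp, 5 with the median scaling, 0 without a filter, 0 with all 6 arrays above background, 5 with the mean of probes, 7 with slide as a fixed and 5 as a random block, 0 with the replicate block, 0 with the authors' value table, 6 with trend and robust moderation, and 0 to 3 on leaving out one array (0 without wild-type replicate 1 or 2, 1 without wild-type replicate 3). Medians of all members, core and regulatory genes were 0.042, 0.0095 and 0.049 with quantile normalization. With the authors' table the core and regulatory medians were 0.010 and 0.055. Among probes with AATAAA, chosen after seeing the data, the 3 medians were -0.19, -0.20 and -0.17, and the core median among the others was 0.027. With the replicate block, 0 members passed the adjusted threshold, as without it.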
